A study of Homo sapiens with 12 samples.

Results

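The Nutlin-3a response of SW48 cells was compared with that of HCT116 cells, probe set by probe set. Both are human colorectal cancer cell lines that the labels give as p53 wild type. For each probe set the response is the log2 signal with Nutlin-3a minus the untreated log2 signal, and the response difference is the response in SW48 minus that in HCT116. All probe sets paired with 1 gene symbol were included, which were 14530 of the 37270 on the array (14118 genes). The comparison used 8 arrays in 4 groups: untreated HCT116, HCT116 with 10 µM Nutlin-3a for 8 h, untreated SW48, and SW48 with the same treatment, with 2 arrays in each. The series holds 12 arrays, and the other 4 are of RKO, another p53 wild-type colorectal line treated the same way, which added to the estimate of spread. The platform was the Affymetrix Human Gene 2.0 ST array, and the values are the authors' log2 signals.

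The labels speak of duplicates and do not say whether these were separate cultures, so p-values measure only the spread between these arrays, which may be technical. Line and any culture or array batch that follows the line cannot be told apart. The extraction text names thyroid tissue as the source and the growth text names HCT116 alone, so markers were checked. Levels were taken as means over the 4 arrays of a line, untreated and treated together. Of 9 measured markers of intestinal epithelium, 8 lay above the table median of 5.01 in HCT116 and 8 in SW48, with EPCAM, an epithelial adhesion molecule, highest at 11.02 and 11.10. Of 6 measured thyroid markers 3 lay above it in each line, the highest being NKX2-1 at 6.22 and 5.99 on the brighter of its probe sets. None of these 15 marker genes had a called response difference. A wider thyroid list also holds the oxidase genes DUOX1 and DUOX2, which are not particular to that gland. DUOX1 read 6.56 in untreated HCT116 and 5.24 in untreated SW48, above the table median in both, and had a called response difference of -0.77, described with the other genes; DUOX2 read 4.31 and 4.40. The part of the tissue named in the extraction text in any result was not tested.

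p53 is a transcription factor that MDM2 holds at a low level by binding it and marking it for degradation. Nutlin-3a occupies the p53 pocket of MDM2, so p53 accumulates without DNA damage and switches on genes of cell cycle arrest, apoptosis, metabolism and secretion, while genes of DNA replication fall indirectly. How strongly one target gene answers can differ between cell types with chromatin, cofactors and the starting level of the gene.

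Called response differences were few, and they ran in both directions. By limma's moderated test with Benjamini-Hochberg adjustment over all 14530 probe sets, 30 probe sets of 30 genes passed an adjusted p of 0.05, which is 0.206% of those tested. The response was higher in SW48 for 12 of them (0.0826%) and lower in SW48 for 18 (0.124%). By gene type 27 were protein-coding, 2 were long noncoding RNAs and 1 was a microRNA gene. The split depended on scaling: of 33 calls after quantile normalization 18 were higher and 15 lower in SW48, and of 24 calls after each array was centred on its median 6 were higher and 18 lower. With the 8 arrays of the 2 lines alone, 8 probe sets were called, all of them among the 30: LACC1, STAT4, TLR3, APAF1, RINL and ZBTB5 lower and MIR34A and DHRS3 higher in SW48.

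The sizes ranged from 0.53 to 1.75 on the log2 scale, against a median standard error of 0.126. An unadjusted p under 0.05 was reached by 1935 probe sets (13.3%). A response difference of at least 2-fold was estimated for 20 probe sets, of which 14 were called. For all 30 called genes the 4 differences between single Nutlin-3a and untreated arrays of SW48 did not overlap the 4 of HCT116, as was the case for 28.7% of all probe sets tested. These are the arrays that made the calls, so the count is not separate evidence. Over all probe sets the median response difference was -0.01, and 52.2% lay below 0.

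**Figure D1:**
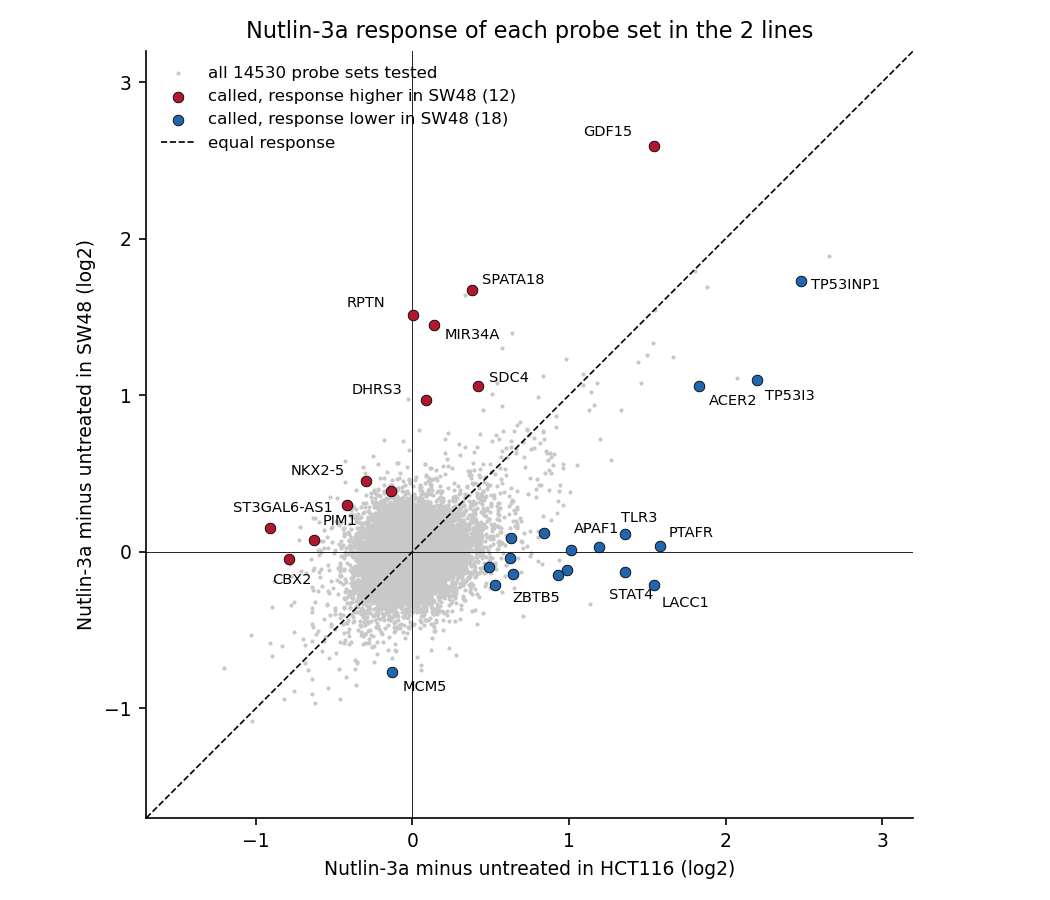
Nutlin-3a response in SW48 (vertical axis, log2) against that in HCT116 (horizontal axis, log2) for the 14530 probe sets tested, each point a difference of 2-array means. The 12 called genes with a higher response in SW48 (red) lie above the dashed line of equal response and the 18 with a lower response (blue) below it; GDF15 stands at 1.54 in HCT116 and 2.59 in SW48, and LACC1 at 1.54 and -0.21.

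The 30 genes were sorted by the response within each line. In 18 genes the response was called in HCT116 alone, in 6 in SW48 alone, in 5 in both lines in the same direction and in 1 in both lines in opposite directions. For comparison, 692 of all probe sets tested (4.76%) had a called response in HCT116 and 429 (2.95%) in SW48. The sorting used the arrays that made the calls, so it is not independent of them. A response called in 1 line alone is described here as differing only because the difference itself passed its own test.

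The 4 most negative response differences were those of LACC1, PTAFR, STAT4 and TLR3, which rose in HCT116. LACC1 encodes an enzyme of purine metabolism studied in macrophage inflammation. Its log2 signal was 6.69 and 7.03 on the untreated HCT116 arrays and 8.47 and 8.33 with Nutlin-3a, but 5.15 and 5.07 untreated and 4.80 and 5.00 treated in SW48. The treated HCT116 arrays lay above the untreated ones, and the treated SW48 arrays lay below theirs. The SW48 response of -0.21 ± 0.12 did not pass (adjusted p = 0.431, limma). The response difference was -1.75 ± 0.17 (SE; adjusted p = 0.00352 by limma), a 3.36-fold ratio between the responses.

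PTAFR, the receptor for platelet-activating factor, read 5.90 and 6.19 untreated and 7.73 and 7.51 treated in HCT116. In SW48 it read 5.54 and 5.76 untreated and 5.57 and 5.81 treated, so the SW48 groups overlapped. This gave a response difference of -1.54 ± 0.22 (adjusted p = 0.0304, limma).

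STAT4, which carries interleukin signals to the nucleus, read 4.80 and 4.84 untreated and 6.30 and 6.05 treated in HCT116. In SW48 all 4 arrays stayed between 4.17 and 4.46, below the table median. The difference in response was -1.48 ± 0.16 (adjusted p = 0.00817, limma).

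TLR3, the endosomal receptor for double-stranded RNA, had the opposite starting order of the lines. It read 9.0 on both untreated SW48 arrays and 9.16 and 9.07 with Nutlin-3a, while HCT116 went from 6.89 and 6.80 to 8.15 and 8.25. The treated HCT116 arrays thus remained below every SW48 array. Between the lines the response differed by -1.24 ± 0.097 (adjusted p = 0.00237, limma).

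APAF1, the core of the apoptosome that activates caspase-9, had close starting levels in the 2 lines. Untreated it read 7.41 and 7.42 in HCT116 and 7.42 and 7.31 in SW48, a difference that did not pass the test (adjusted p = 0.597, limma). With Nutlin-3a it read 8.62 and 8.59 in HCT116 and 7.36 and 7.43 in SW48. Only the treated HCT116 arrays stood apart. The response difference was -1.16 ± 0.098 (adjusted p = 0.00237, limma), and RKO rose by 0.77 ± 0.069.

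Transcription factor genes were among those that rose in HCT116 alone. ZBTB5, a zinc-finger repressor, went from 7.97 and 7.95 to 8.87 and 8.92 in HCT116 and from 7.61 and 7.69 to 7.51 and 7.48 in SW48 (response difference -1.08 ± 0.097, adjusted p = 0.00276, limma). BCL6, a repressor best known from germinal-centre B cells, went from 7.80 and 7.79 to 8.35 and 8.31 in HCT116 and from 8.33 and 8.17 to 8.00 and 8.08 in SW48. The lines exchanged their order for BCL6, with HCT116 the higher only after treatment (response difference -0.75 ± 0.094, adjusted p = 0.0202, limma).

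EGR1, an immediate early factor induced by growth signals, has 2 probe sets with its symbol that disagreed. The brighter went from 8.79 and 8.87 to 9.68 and 9.67 in HCT116, with SW48 at 11.26 on both untreated arrays and 11.31 and 11.45 treated (response difference -0.72 ± 0.090, adjusted p = 0.0202, limma). The other gave 0.23 ± 0.15 (adjusted p = 0.554), so the gene's difference rests on 1 of its probe sets.

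The remaining genes that rose in HCT116 alone have varied roles. RINL, a Ras and Rab interactor-like protein, had a response difference of -1.10 ± 0.15 (adjusted p = 0.0233, limma). PARD6G, a cell polarity protein, rose from 7.92 and 8.03 to 8.94 and 9.03 in HCT116 and stayed at 4.38 to 4.69 in SW48, below the table median (-1.0 ± 0.15). In RKO PARD6G also rose, by 0.55 ± 0.11 (adjusted p = 0.0364, limma), while the RKO response of RINL (0.12 ± 0.10) was not called. DUOX1, an NADPH oxidase that makes hydrogen peroxide, gave -0.77 ± 0.11. It is on the list of thyroid markers as well, being first known from that gland, and was the 1 called member of 9 probe sets there.

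ANXA4, a calcium-dependent membrane-binding annexin, CCDC186, which acts in dense-core vesicle formation, and CCNG2, an unconventional cyclin linked to cell cycle exit, fell outside the rule for named genes and are named after their values were seen. Their response differences were -0.66 ± 0.094, -0.59 ± 0.092 and -0.55 ± 0.083, with adjusted p-values of 0.0304, 0.0442 and 0.0385 by limma. In HCT116 they rose by 0.62, 0.49 and 0.63, and in SW48 they gave -0.04, -0.10 and 0.09. In RKO they gave 0.49, 0.18 and 0.87, called for ANXA4 and CCNG2 and not for CCDC186. After quantile normalization CCDC186 (adjusted p = 0.0738) and CCNG2 (0.0617) no longer passed.

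In 3 genes the response was called in both lines and was larger in HCT116; all 3 are established p53 targets. TP53I3, a quinone oxidoreductase that p53 induces, went from 7.59 and 7.46 to 9.80 and 9.65 in HCT116 and from 8.52 and 8.57 to 9.54 and 9.76 in SW48. Starting from different levels, the lines overlapped after treatment. The rise was 4.59-fold in HCT116 and 2.15-fold in SW48 (response difference -1.09 ± 0.13, adjusted p = 0.0202, limma).

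TP53INP1, which promotes p53 activity and autophagy, rose 5.58-fold in HCT116 and 3.31-fold in SW48 (-0.76 ± 0.11, adjusted p = 0.0305, limma). ACER2, a Golgi ceramidase, rose 3.55-fold in HCT116 and 2.09-fold in SW48 (-0.77 ± 0.10, adjusted p = 0.0281, limma). Both started higher in untreated SW48, by 0.56 and 1.35 on the log2 scale. After quantile normalization TP53INP1 no longer passed (adjusted p = 0.066).

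MCM5 was the 1 gene whose lower response in SW48 was a fall. It encodes a subunit of the MCM2-7 helicase that unwinds DNA at replication origins. It went from 10.08 and 10.09 to 9.31 and 9.33 in SW48 and from 10.65 and 10.78 to 10.55 and 10.62 in HCT116. The fall in SW48 was 1.70-fold (adjusted p = 0.000126), and the HCT116 response of -0.13 did not pass (adjusted p = 0.317, limma). As a response difference this was -0.64 ± 0.089 (adjusted p = 0.0281).

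MIR34A led the genes with a higher response in SW48 by the strength of its test. It encodes microRNA 34a, a textbook p53 target whose mature strand represses cell cycle and survival messages. RefSeq (GRCh38.p14) places the hairpin at chr1:9151668-9151777 on the minus strand. The sequences are shown because the microRNA, and not a protein, is the product of this gene; capitals mark the seed, bases 2 to 8, in the mature strands and the mature strands in the hairpin.
hsa-miR-34a-5p: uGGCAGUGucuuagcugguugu
hsa-miR-34a-3p: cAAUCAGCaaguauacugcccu
MIR34A hairpin: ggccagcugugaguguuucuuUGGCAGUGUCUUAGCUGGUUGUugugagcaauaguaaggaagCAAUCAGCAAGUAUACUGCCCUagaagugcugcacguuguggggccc
The seed of the 5p strand is carried by 3 mature entries of the RefSeq table, the others being hsa-miR-449a and hsa-miR-449b-5p. The 3p seed is carried by 1. These counts cover the entries of that table alone, and microRNAs missing from it may carry the same seeds.

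The MIR34A probe set read 4.28 and 4.40 untreated and 5.78 and 5.80 treated in SW48. In HCT116 it read 3.73 and 3.61 untreated and 3.78 and 3.85 treated, below the table median on all 4 arrays. The untreated SW48 arrays already lay above all HCT116 arrays, by 0.67 ± 0.079 between the untreated means (adjusted p = 5.9e-05, limma), and the treated SW48 arrays lay higher still. The rise in SW48 was 2.73-fold, and the response difference was 1.31 ± 0.11 (adjusted p = 0.00237, limma). A probe set of this kind covers the precursor's locus and can also read a longer host transcript, so it does not measure the mature strands printed above.

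RPTN encodes repetin, a structural protein of the epidermal cornified envelope. It read 5.82 and 5.85 untreated and 7.50 and 7.21 treated in SW48, and between 3.96 and 4.30 on all HCT116 arrays, where the groups overlapped. The response difference of 1.51 ± 0.19 was the largest of the positive ones (adjusted p = 0.0202, limma). In RKO the response was 0.02 ± 0.13.

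SPATA18, or Mieap, acts in the quality control of mitochondria and is a p53 target. It went from 8.01 and 7.88 to 9.52 and 9.70 in SW48 and from 4.55 and 4.77 to 5.13 and 4.95 in HCT116. SW48 was thus far higher before treatment, by 3.29 on the log2 scale, and higher still after it, by 4.57. The rise was 3.17-fold in SW48 and an uncalled 1.30-fold in HCT116 (response difference 1.29 ± 0.15, adjusted p = 0.0141, limma).

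GDF15, a TGF-beta family protein that stressed cells release, rose in both lines and more in SW48, where it started lower. It went from 9.45 and 9.13 to 11.87 and 11.89 in SW48 and from 11.39 and 11.24 to 12.88 and 12.84 in HCT116. The rise was 6.04-fold against 2.92-fold, and the response difference was 1.05 ± 0.14 (adjusted p = 0.0215, limma). The treated HCT116 arrays were near the highest value of the whole table, 13.45; a ceiling on their signal was not tested.

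A second probe set in the GDF15 locus ran the other way. MIR3189 encodes a microRNA within GDF15, at chr19:18386562-18386634 on the plus strand (GRCh38.p14). Its mature strands, printed with the seed in capitals to show that they share no seed with those of MIR34A, are:
hsa-miR-3189-5p: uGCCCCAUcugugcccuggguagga
hsa-miR-3189-3p: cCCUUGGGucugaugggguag
The MIR3189 response was 1.89 in SW48 and 2.66 in HCT116. The response difference of -0.77 ± 0.17 did not pass (adjusted p = 0.134, limma), but its sign is opposite to that of GDF15, and it can also read GDF15 transcript, so the 2 probe sets of this locus gave opposite orders of the lines.

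Other genes with a higher response in SW48 rose there by a smaller amount. DHRS3, which reduces retinaldehyde and so limits retinoic acid, went from 6.49 and 6.52 to 7.47 on both treated arrays in SW48 and stayed between 9.50 and 9.66 in HCT116 (response difference 0.88 ± 0.13, adjusted p = 0.0347, limma). SDC4, the heparan sulfate proteoglycan syndecan-4, started at close levels, 11.06 and 10.95 in SW48 and 10.99 and 11.01 in HCT116. SDC4 rose 2.08-fold in SW48 and 1.34-fold in HCT116 (0.64 ± 0.094, adjusted p = 0.0328).

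The antisense RNA SLCO4A1-AS1 gave 0.53 ± 0.079 (adjusted p = 0.0358, limma). It read between 4.23 and 4.73 on the 8 arrays, below the table median throughout. After centring, DHRS3 (adjusted p = 0.073), SDC4 (0.073) and SLCO4A1-AS1 (0.0752) no longer passed; SLCO4A1-AS1 also lost its call after quantile normalization (0.0574).

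In 4 genes the higher response in SW48 came with a fall in HCT116 and no called response in SW48. CBX2, a Polycomb protein that reads a repressive histone mark, began at close levels, 7.90 and 7.97 in SW48 and 7.90 and 8.00 in HCT116. With Nutlin-3a it read 7.91 and 7.87 in SW48 and 7.08 and 7.24 in HCT116. The treated HCT116 arrays alone were lower (response difference 0.74 ± 0.10, adjusted p = 0.0281, limma).

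PIM1, a serine/threonine survival kinase, went from 8.01 and 8.10 to 7.38 and 7.47 in HCT116 and from 9.73 and 9.75 to 9.78 and 9.85 in SW48 (0.71 ± 0.10, adjusted p = 0.0304, limma). The antisense RNA ST3GAL6-AS1 fell by 0.91 ± 0.11 in HCT116, while in SW48 all arrays lay below the table median (response difference 1.06 ± 0.15, adjusted p = 0.0305). GPR63, a G protein-coupled receptor, fell by 0.42 ± 0.078 in HCT116 and gave 0.30 ± 0.078 in SW48, where it too lay below the median (0.72 ± 0.11, adjusted p = 0.0385). How the probe sets treat strand is not given in the sources used here, and whether signal of an antisense gene includes that of its partner was not tested. After centring CBX2 (adjusted p = 0.057), PIM1 (0.073) and GPR63 (0.073) no longer passed.

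NKX2-5, a homeobox factor known from heart development, was the 1 gene with called responses in opposite directions. It went from 7.46 and 7.43 to 7.84 and 7.94 in SW48, a rise of 0.45 ± 0.069 (adjusted p = 0.00752, limma). In HCT116 it went from 6.18 and 6.05 to 5.82 and 5.80, a fall of 0.30 ± 0.069 (adjusted p = 0.0343). The response difference was 0.75 ± 0.097 (adjusted p = 0.0215).

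**Figure D2:**
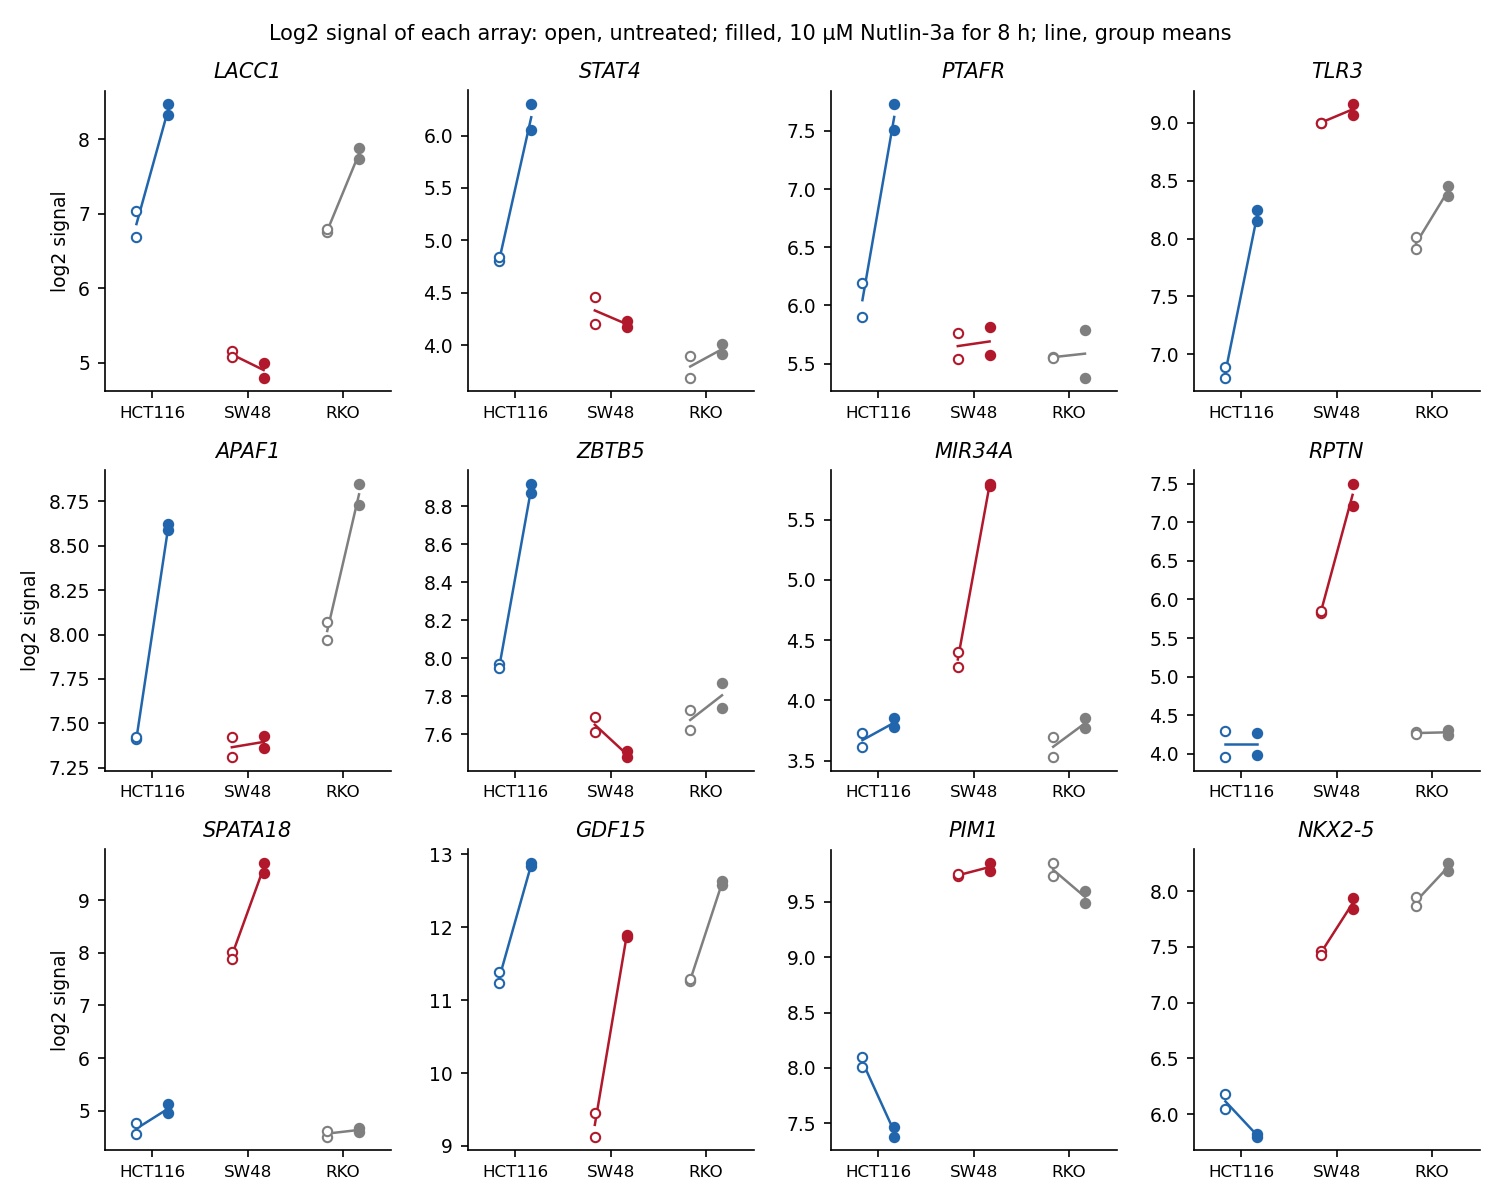
Log2 signal on each of the 12 arrays for 12 of the called genes, by line, with untreated arrays as open points, Nutlin-3a arrays as filled points and lines joining the group means; each panel has its own vertical axis. LACC1, STAT4, PTAFR, TLR3, APAF1 and ZBTB5 rise in HCT116 and not in SW48, MIR34A, RPTN and SPATA18 rise in SW48, GDF15 rises in both from a lower start in SW48, PIM1 falls in HCT116, and NKX2-5 moves in opposite directions.

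RKO gives a view of these genes on arrays that did not enter the contrast, though they entered the estimate of spread. The RKO response was called for 9 of the 18 genes with a lower response in SW48 and for 2 of the 12 with a higher one, against 278 of all probe sets tested (1.91%). For the 18 genes it lay nearer to SW48 in 10 and nearer to HCT116 in 8. For the 12 it lay nearer to SW48 in 5 and nearer to HCT116 in 7. The response of RKO to Nutlin-3a was nearer to that of HCT116 for LACC1 (1.03 ± 0.12) and CCNG2 (0.87 ± 0.059), and near 0 for PTAFR (0.03 ± 0.15) and DUOX1 (-0.06 ± 0.078). For MIR34A (0.19 ± 0.079) and RPTN the RKO value lay beside that of HCT116.

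**Figure D3:**
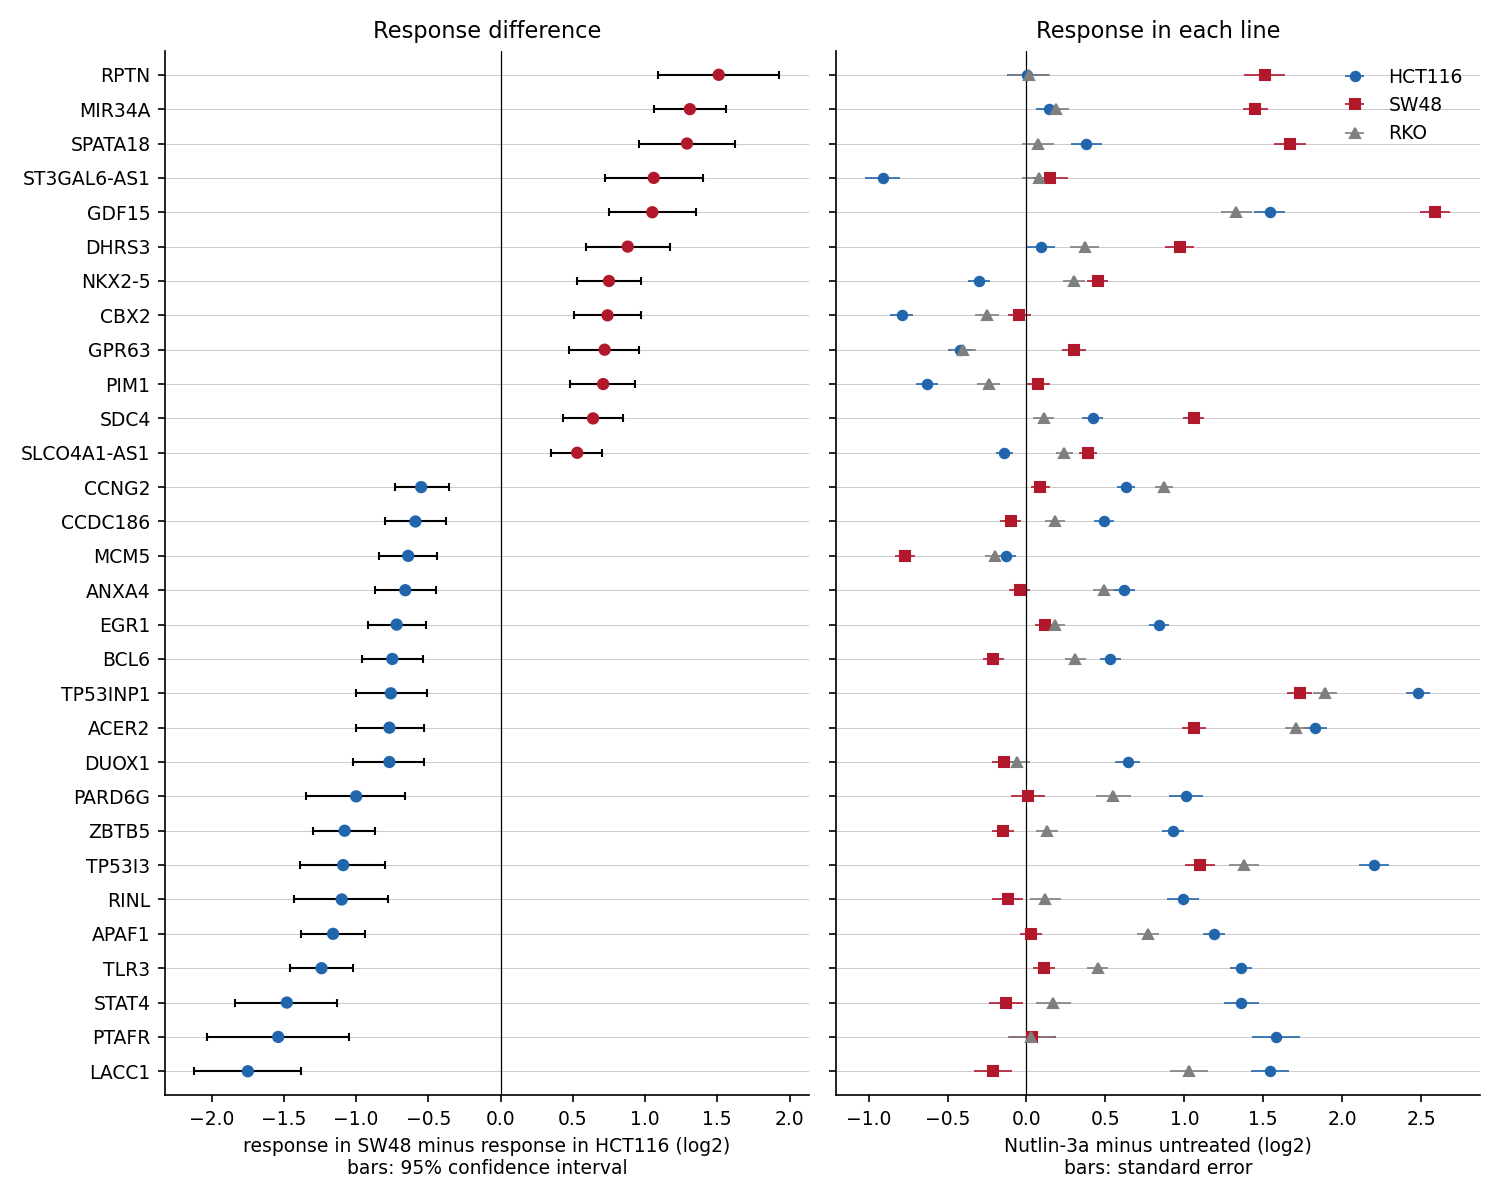
Left, response difference of the 30 called genes (SW48 minus HCT116, log2) with 95% confidence intervals; right, the response in HCT116, SW48 and RKO (log2) with standard errors, n = 2 arrays per group. The intervals run from -2.12 to -1.38 for LACC1 at the bottom to 1.09 to 1.93 for RPTN at the top, and the RKO triangles lie beside SW48 for some genes and beside HCT116 for others.

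The starting levels of the lines differed for most of these genes, as they did for much of the array. The untreated level of SW48 and HCT116 was called different for 24 of the 30 (15 of 18 with a lower and 9 of 12 with a higher response in SW48), against 6383 of all probe sets tested (43.9%). The same arrays and the same estimate of spread also enter the response difference by which the 30 were chosen. This count and that of the gaps below are therefore not independent of that choice. Among the 18 genes 8 started higher in SW48 and 7 higher in HCT116; among the 12 these were 5 and 4. The gap between the lines was wider with Nutlin-3a than without it in 18 genes and narrower in 12, and over all probe sets it was wider in 50.7%. It grew from -1.75 to -3.50 for LACC1 and from 1.71 to 3.22 for RPTN, and shrank from 2.15 to 0.91 for TLR3 and from -2.03 to -0.98 for GDF15. In 7 genes all 4 arrays of at least 1 line lay below the table median (RPTN, MIR34A and SLCO4A1-AS1 in HCT116; ST3GAL6-AS1, GPR63, SLCO4A1-AS1, STAT4 and PARD6G in SW48), a range in which the table carries no detection calls.

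**Figure D4:**
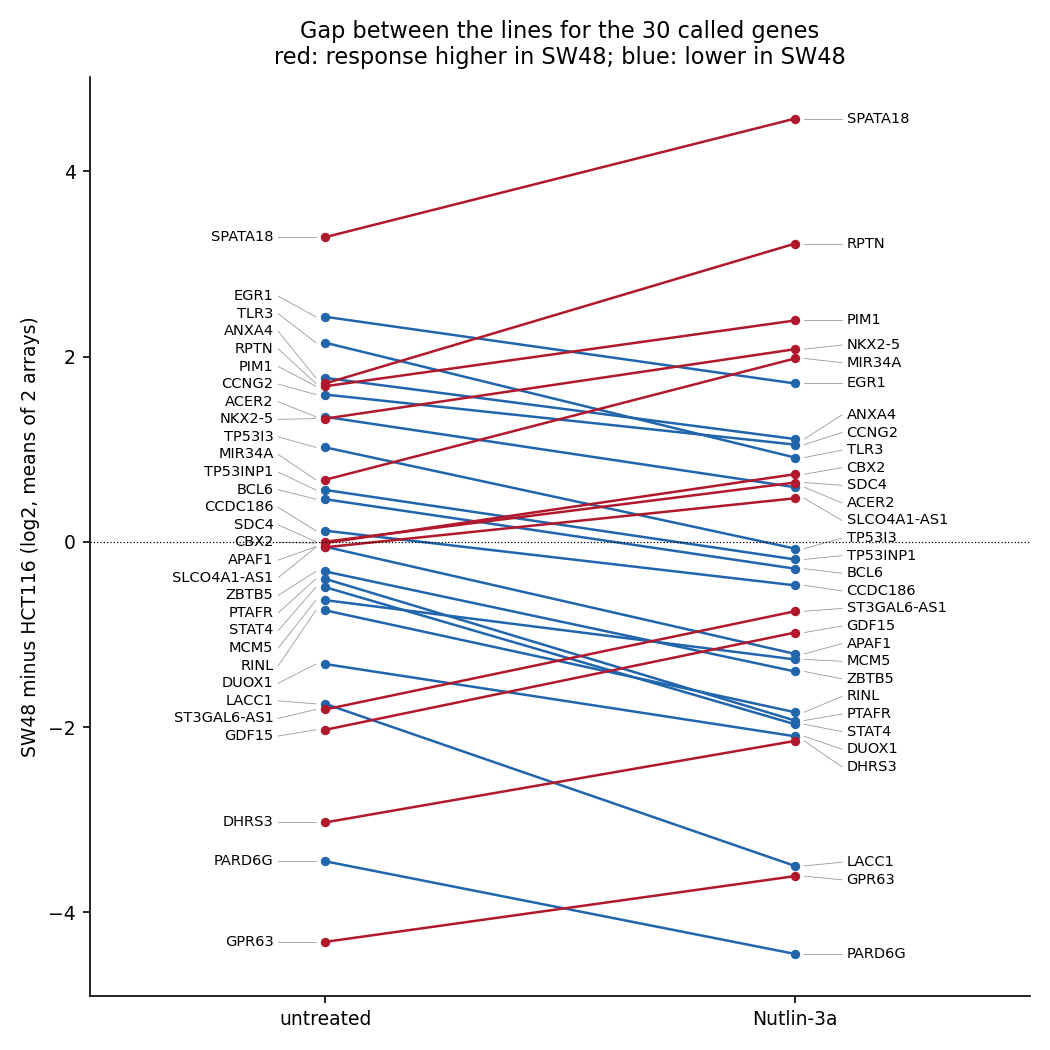
Level in SW48 minus level in HCT116 (log2, means of 2 arrays) for the 30 called genes, untreated at left and with Nutlin-3a at right; red lines are genes with a higher response in SW48 and blue lines genes with a lower one. Genes such as TP53I3 go from 1.02 to -0.07, so that a gap closes, and genes such as APAF1 go from -0.05 to -1.21, so that one opens.

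Of the 56 probe sets of known p53 targets, 8 had a called response difference, against 30 of all 14530 tested (0.206%). At that share a short list would mostly hold no call, so 0 calls below is no result about a list's members. The 6 target lists name 91 genes, of which 54 were measured on 56 probe sets; targets without a single-symbol probe set are not analysed here. All gene lists were chosen with earlier results of these data known, so counts in them are not separate evidence. Of the 56, 6 had a called lower response in SW48 (TP53INP1, APAF1, TP53I3, ACER2, PTAFR and TLR3) and 2 a called higher one (SPATA18 and GDF15). The response difference was below 0 for 39 of the 56 (69.6%) with a median of -0.13, against 52.2% and -0.01 over all probe sets. The same count was 35 (62.5%) after quantile normalization, against 49.6%, and 42 (75.0%) after centring, against 65.5%.

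By function, the 5 arrest probe sets held 0 calls and lay below 0 throughout (4 of 5 after quantile normalization), with a median of -0.23; without the first or the second untreated SW48 array this median was -0.07 or -0.38. PLK2, a polo-like kinase, gave -0.68 ± 0.13 (adjusted p = 0.0959), and SFN, the 14-3-3 sigma protein of the G2 checkpoint, -0.49 ± 0.090 (adjusted p = 0.0854, limma). Of 10 apoptosis probe sets 2 were called lower in SW48 and 0 higher (median -0.07). PIDD1, a death-domain scaffold, gave 0.50 ± 0.14 (adjusted p = 0.194), and BBC3, the BH3 protein PUMA, -0.43 ± 0.14 (adjusted p = 0.24). Neither passed.

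Metabolism and autophagy targets held 1 call in each direction among 15 probe sets (median -0.20), 14 of which lay below 0; SPATA18 was the exception. Secreted and membrane targets held 1 call higher and 2 lower in SW48 among 15 (median -0.06). Feedback regulators held 1 call among 5 (median -0.18, or -0.04 with a filter on dim probe sets) and DNA repair targets 0 among 6 (median 0.03). Of 9 probe sets of p53-linked noncoding RNAs 1 was called, MIR34A, and the median was -0.17. It was -0.02 without HCT116 Nutlin-3a array 1 or SW48 untreated array 1, and nearer to 0 without SW48 Nutlin-3a array 1.

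In 31 of the 56 p53 target probe sets the rise was called in both lines, and the difference was called for 4 of these. The 95% confidence interval of the response difference stayed within 1.5-fold in either direction for 36 of the 56, and for 78.0% of all probe sets tested. SESN2, an inhibitor of mTORC1 signalling, had responses of 1.54 in SW48 and 1.55 in HCT116, with an interval of the difference from -0.25 to 0.24. PMAIP1, the BH3 protein NOXA, had 0.70 and 0.71, with an interval from -0.22 to 0.21. RRM2B, the p53-inducible ribonucleotide reductase subunit, had 1.14 and 1.09, with an interval from -0.21 to 0.31. These intervals do not show equality, but they bound the difference.

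Of 34 probe sets of DNA replication and E2F genes 1 was called, MCM5, against 0.206% of all probe sets tested. Below 0 lay 28 (82.4%), against 52.2% of all probe sets, with a median of -0.15; these were 25 (73.5%, against 49.6%) after quantile normalization and 30 (88.2%, against 65.5%) after centring. The list itself was not tested. The helicase subunits MCM2 to MCM7, singled out after their values were seen, lay below 0 in 6 of 6. Besides MCM5 the largest were MCM2 (-0.46 ± 0.083, adjusted p = 0.0822) and MCM6 (-0.35 ± 0.080, adjusted p = 0.134), which did not pass. CDC6, the loader of that helicase, gave -0.50 ± 0.093 (adjusted p = 0.0931, limma). Members ran the other way as well: CCNE1, or cyclin E1, gave 0.23 ± 0.080 (adjusted p = 0.258) and CDT1, a licensing factor, 0.27 ± 0.12 (adjusted p = 0.362). Genes of G2 and mitosis held 0 calls among 31, with a median of -0.03. At the share called over all probe sets, a list of that size would most likely hold none.

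Among immune lists the calls were the genes already described. Over all probe sets tested 0.206% were called. These lists too were chosen with earlier results of these data known, so their counts are not separate evidence. The NF-kB and inflammatory list held 3 calls lower in SW48 among 12 probe sets (LACC1, PTAFR and STAT4, an enzyme, a lipid receptor and a signal transducer, none an NF-kB subunit) and a median of -0.06. The chemokine gene CXCL8 gave -0.10 ± 0.16 and the adhesion gene ICAM1 -0.01 ± 0.11, and neither passed. The list of interferon-stimulated and nucleic acid sensing genes held 1 call among 19, TLR3. Its interferon-stimulated members ISG15 (0.06 ± 0.089) and IFIT1 (0.07 ± 0.15) did not pass, nor did the RNA sensor IFIH1 (-0.48 ± 0.12, adjusted p = 0.166). Immediate early and MAPK genes held 1 call among 22, EGR1, with FOS uncalled at 0.03 and 0.21 on its 2 probe sets, JUNB at 0.05 and DUSP1 at -0.03.

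The other lists held no call except for DUOX1 among the thyroid markers. With 0.206% of all probe sets called, 0 calls in lists of these sizes is no result about their members. Intestinal identity and Wnt genes (20 probe sets) had a median of 0.12, and LGR5, the intestinal stem cell receptor, gave -0.53 ± 0.13 (adjusted p = 0.165). Integrated stress genes (10) had a median of -0.15 and ribosome biogenesis and MYC genes (13) one of 0.09, with MYC itself at 0.12 ± 0.092. Cholesterol synthesis genes (12) had a median of 0.12, epithelial junction and keratin genes (26) one of -0.11, and GRHL3, an epithelial transcription factor on that list, gave -0.95 ± 0.19 (adjusted p = 0.096, limma). Mismatch repair genes (6, median -0.10), DNA damage response genes (15, -0.06), mesenchymal genes (11, 0.03), autophagy and lysosome genes (20, -0.09) and housekeeping genes (7, 0.05) also held no call. Immune (7), fibroblast (3) and endothelial markers (5) had medians of 0.06, 0.25 and 0.11, and the 3 genes named with the study one of -0.11.

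**Figure D5:**
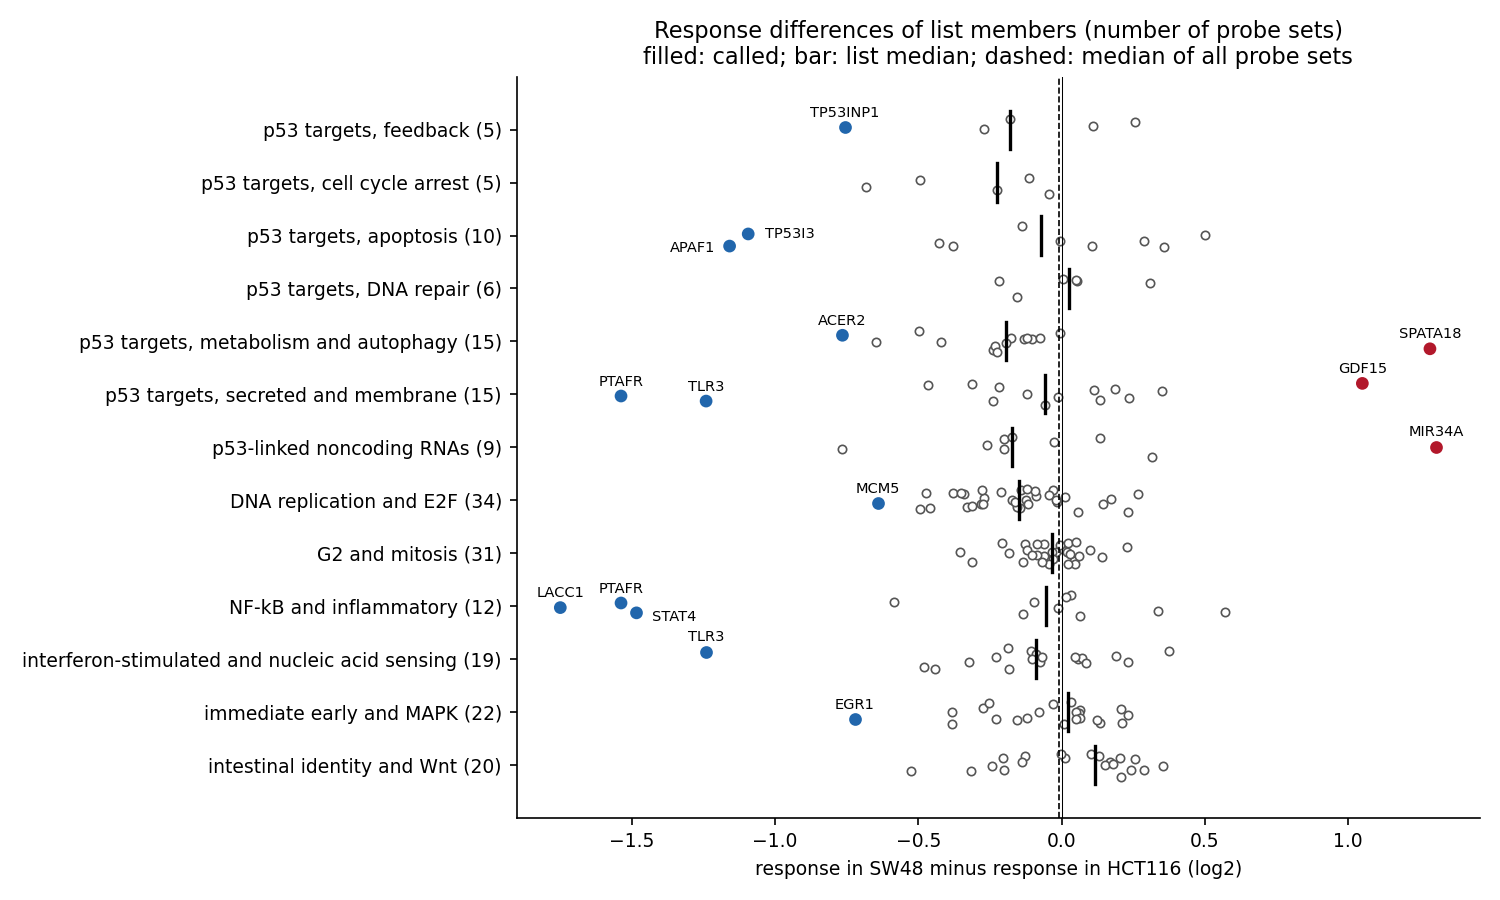
Response difference (SW48 minus HCT116, log2) of each probe set of 13 gene lists, with called members filled and named, list medians as bars and the median of all probe sets as a dashed line. Called members lie on both sides of 0 for the p53 target lists and on the negative side for the replication, inflammatory, nucleic acid sensing and immediate early lists.

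Genes that RKO marks as responsive give a set whose responses come from other arrays. The estimate of spread was shared with the arrays of SW48 and HCT116, so the set is not independent of the calls. Of 172 probe sets called higher with Nutlin-3a in RKO, 113 (65.7%) had the larger response in HCT116, with a median response difference of -0.10; the median response was 0.32 in SW48 and 0.47 in HCT116. Of 106 called lower in RKO, 73 (68.9%) fell further in HCT116, with a median response of -0.15 in SW48 and -0.25 in HCT116. Without further scaling the response difference was below 0 for 65.7% of the 172 and 31.1% of the 106, against 52.2% of all probe sets. After quantile normalization the response difference was below 0 for 58.1% of the 172 and 23.6% of the 106, against 49.6% of all probe sets. After centring it was below 0 for 73.3% and 45.3%, against 65.5%. The response difference itself was called for 10 of the 172 and 1 of the 106, against 0.206% of all probe sets tested.

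Promoter sequence was available for 25 of the called genes, as 33 windows of 300 bases from RefSeq (GRCh38.p14), 250 before to 50 after a gene's start. The consensus p53 half-site, searched on both strands, was found in the windows of 1 of the 25, DUOX1. Among all promoter windows it was found in 6.63% of 35116. That is a share of windows and not of genes, so it is no direct comparison. A match is not a binding site, and windows of this length leave out introns and distal elements.

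Which genes stayed called depended on the array left out, and every called response difference kept its sign in all 12 such fits. LACC1, STAT4, TLR3, APAF1, ZBTB5 and MIR34A were called in all 12, with adjusted p-values of at most 0.0476 (limma). SPATA18 lost its call without HCT116 Nutlin-3a array 2, SW48 Nutlin-3a array 2 or SW48 untreated array 2 (adjusted p up to 0.0659). RPTN lost it without HCT116 Nutlin-3a array 2, SW48 Nutlin-3a array 1 or either SW48 untreated array (up to 0.0839). GDF15 lost it without HCT116 untreated array 1 or any Nutlin-3a array of the 2 lines (up to 0.105).

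TP53I3 lost its call without SW48 Nutlin-3a array 1, HCT116 Nutlin-3a array 1 or any untreated array of the 2 lines (up to 0.0926). EGR1 lost it without SW48 Nutlin-3a array 1, HCT116 untreated array 1, either HCT116 Nutlin-3a array or either SW48 untreated array (up to 0.0926). BCL6 kept it without SW48 untreated array 2 and NKX2-5 without HCT116 untreated array 2, and both lost it without each of the other 7 arrays of the 2 lines (up to 0.0948 and 0.105). RINL and DHRS3 lost it without each of the 8 arrays of the 2 lines (up to 0.105 and 0.162).

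Calls of the other 15 genes also depended on RKO arrays through the estimate of spread. PTAFR lost its call without either untreated RKO array and without each array of the 2 lines except HCT116 untreated array 2 (up to 0.125). TP53INP1, CCDC186 and PIM1 lost theirs without either treated RKO array and without each of the 8 arrays of the 2 lines (up to 0.146, 0.18 and 0.128). ACER2, PARD6G, MCM5, CBX2 and ST3GAL6-AS1 lost theirs without any RKO array and were called in at most 2 of the 12 fits (adjusted p up to 0.124, 0.18, 0.126, 0.125 and 0.126). DUOX1, ANXA4, CCNG2, SLCO4A1-AS1, SDC4 and GPR63 lost theirs in all 12 fits (up to 0.13, 0.13, 0.18, 0.179, 0.132 and 0.158).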

How the data were processed

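The authors deposited 1 log2 expression value per probe set and array. Per the submitters' processing notes GCOS was used; its version is not given in the sources used here, nor are background correction, summarization, normalization and the log base. Values ran from 2.22 to 13.45, which was read as base 2; column medians were 4.97 to 5.05, so scale was set before deposit, and centring was not stated. Columns of samples not used numbered 0. Symbols came from the platform's annotation (14530 probe sets with 1 symbol, 0 with several, 22740 with none); gene numbers of all 14530 matched RefSeq (GRCh38.p14). No dim-signal filter was applied.

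All 12 arrays entered 1 model of 6 group means (limma 3.58.1, R 4.3.3; 6 residual and 3.7 prior degrees of freedom), as duplicates leave little spread within the 2 lines. Values are differences ± SE. The script was tested on simulated data. Members and 29 gene lists were chosen with earlier results of these data known; 2 lists (core histones, solute carriers) had no measured member and are not analysed here. Named were the 14 largest called differences in each direction with non-overlapping arrays, up to 4 called members per list or the largest if none was called, and opposite responses; other list members are named as examples chosen after their values were seen. Alternatives were array subset, probe set choice, dim filter, scaling, variance prior, threshold, replicate block and leaving out each array.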

Additional observations from a re-analysis of the deposited data

Results flagged for a closer look

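Each of the 30 called genes had a response to Nutlin-3a that differed between SW48 and HCT116 by a test of the difference itself. With a lower response in SW48 these were LACC1 (-1.75), PTAFR (-1.54), STAT4 (-1.48), TLR3 (-1.24), APAF1 (-1.16), RINL (-1.10), TP53I3 (-1.09), ZBTB5 (-1.08), PARD6G (-1.0), DUOX1 (-0.77), ACER2 (-0.77), TP53INP1 (-0.76), BCL6 (-0.75), EGR1 (-0.72), ANXA4 (-0.66), MCM5 (-0.64), CCDC186 (-0.59) and CCNG2 (-0.55), as log2 response differences. With a higher response in SW48 they were RPTN (1.51), MIR34A (1.31), SPATA18 (1.29), ST3GAL6-AS1 (1.06), GDF15 (1.05), DHRS3 (0.88), NKX2-5 (0.75), CBX2 (0.74), GPR63 (0.72), PIM1 (0.71), SDC4 (0.64) and SLCO4A1-AS1 (0.53). NKX2-5 was the 1 whose responses were called in opposite directions. With the 8 arrays of the 2 lines alone 8 of the 30 stayed called, and with a replicate block within each line 0 did. Many calls also depended on single arrays, as described above. With 2 arrays per group, single arrays could not be examined as outliers.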

How the results depend on the processing

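The 30 calls (12 higher and 18 lower in SW48) became 8 (2 and 6) with the 8 arrays of the 2 lines alone, 140 (44 and 96) with an intensity trend and robust prior, and 6 (1 and 5) at an adjusted p of 0.01. Centring left 6 higher. Leaving out 1 array gave 8 to 18 calls (2 to 7 higher, 5 to 12 lower); the lone array of a group was then assumed to vary like the other groups. Counts stayed within 1.5 times with 1 probe set per symbol (30), all probe sets (29, of which 15 among the 30), a dim filter (42, of which 25) and quantile normalization (33, of which 26). Whether replicate numbers pair the arrays is not given by the labels. Over all probe sets tested, deviations of same-numbered untreated and Nutlin-3a arrays correlated at 0.05 in HCT116, -0.03 in SW48 and -0.06 in RKO. A correlation over all probe sets cannot exclude pairing for single genes. A replicate block within each line called 0 (limma, smallest adjusted p 0.0802, 1842 probe sets at an unadjusted p under 0.05), and a replicate block shared by all lines called 17 (6 and 11). The cause of these changes was not tested. The uncalled difference of KDR (0.15) was -0.03 without SW48 Nutlin-3a array 1 and ranged to 0.32 in the fits without 1 array. The number of arrays limits the precision, and the table gives no signal over background.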

Other observations

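Among probe sets without a gene symbol in the annotation, 14 were called when all 37270 probe sets were tested together by limma. Probe set 16960567 had a response difference of -2.53 ± 0.137, with a response of 0.75 in SW48 and 3.29 in HCT116, a larger size than any named gene reached. Probe set 17061853 gave -1.77 ± 0.137, with -0.01 in SW48 and 1.76 in HCT116. In the other direction 16726884 gave 1.15 ± 0.155 (1.14 in SW48 and -0.01 in HCT116) and 16670997 gave 1.07 ± 0.144 (1.30 and 0.23). The annotation used here does not pair them with genes.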
